A study of Mus musculus with 9 samples.

Results

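The genes described are p53 and targets of p53, a transcription factor that answers DNA damage and other stress. The list names 10 genes, Trp53 itself and the targets Mdm2, Cdkn1a, Bbc3, Btg2, Plk2, Ccng1, Gadd45a, Pmaip1 and Perp, and takes every probe set of these genes by symbol. A probe set is a group of short array probes that read 1 transcript. Of the 10 genes, 9 have at least 1 probe set under their own symbol alone, 14 probe sets in all out of the 20380 that carry a single gene symbol. Trp53 has none so named in the annotation used here, so its transcript was not analysed here and the results below are those of its targets. Perp was dim on every array, and 8 of the 9 passed the filter on low signals and were tested among 7436 genes.

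The RNA came from mouse regulatory T cells, lymphocytes that restrain other immune cells, separated with magnets by the surface proteins CD4 and CD25. All mice were of the C57BL6 strain, and each of the 3 groups had 3 arrays. Beside wild type stood Sirt1 conditional knockouts of 2 kinds, named here by the Cre recombinase that carried out the deletion, CD4-cre and Foxp3-cre. Cre under CD4 control also acts in T cells other than regulatory ones, whereas Cre under Foxp3 control is tied to the factor that defines regulatory T cells. The labels give no age, and they do not say whether the samples of a group came from separate animals, so p-values cover the spread of these samples alone, and that spread may be technical.

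p53 binds a DNA element of paired half-sites and raises the genes beside it. Some of these genes halt the cell cycle (Cdkn1a, Btg2, Gadd45a), some start cell death (Bbc3, Pmaip1, Perp), and Mdm2 encodes the ubiquitin ligase that destroys p53, which closes a feedback loop. Sirt1 encodes an NAD-dependent deacetylase that removes acetyl groups from p53, and deacetylated p53 is known as a weaker activator. The arrays measure transcripts and give neither the amount of p53 protein nor its acetylation.

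The stretch nearest in sequence to the element that p53 reads is shown for the 3 best matches among the 8 listed genes scanned. It is also shown for the 2 members that lay lowest in the Foxp3-cre arrays. Pmaip1 and Perp were not scanned, and binding of p53 to these stretches was not measured. The 250 bases before each start site were scanned for paired half-sites of the canonical p53 response element, with 0 to 13 bases between them, and each placement was scored over its 20 positions. The element reads the same on both strands, and a half-site may belong to more than 1 placement. The sequences are RefSeq's, build GRCm38.p6, written 5′ to 3′ on the strand of the gene, with the half-sites of the best placement in capitals.
Cdkn1a, chr17:29090894-29090949, plus strand: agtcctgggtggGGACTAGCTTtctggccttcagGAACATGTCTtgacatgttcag
Ccng1, chr11:40755450-40755493, minus strand: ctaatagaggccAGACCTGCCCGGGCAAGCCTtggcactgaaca
Gadd45a, chr6:67037426-67037475, minus strand: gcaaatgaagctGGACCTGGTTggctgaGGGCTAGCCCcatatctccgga
Bbc3, chr7:16309474-16309517, plus strand: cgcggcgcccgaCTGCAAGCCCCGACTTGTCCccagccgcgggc
Plk2, chr13:110395001-110395043, plus strand: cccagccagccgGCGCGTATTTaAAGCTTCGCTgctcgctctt

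Cdkn1a matched at 20 of 20 positions with a spacer of 12 bases, a score held by 0.0639% of the 32851 promoter windows in the table. A second placement in the same stretch, 51 bases before the start site and with no spacer, matched at 19. Ccng1 matched at 19 positions, a score that 0.898% of the windows reach, and Gadd45a at 18, reached by 8.45%. The matches of Bbc3, at 17, and of Plk2, at 15, are common: 39.6% and 99.1% of all windows hold 1 as good. Mdm2 and Btg2 reached 16, as 85.4% of windows do. Cdkn1a and Bbc3 have other start sites in the table, whose windows matched at 15 for Cdkn1a and at 17 and 14 for Bbc3. These windows are short, and p53 elements in introns or further upstream lie outside them.

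In both kinds of knockout 0 of the 8 tested p53 targets rose or fell. Against wild type 4 lay higher and 4 lower in CD4-cre, and 2 lay higher and 6 lower in Foxp3-cre. Plk2 and Bbc3 stood lowest in Foxp3-cre, at -0.41 and -0.37 on the log2 scale, without passing the test. Cdkn1a, the gene of the cell cycle inhibitor p21, stood 0.14 higher in CD4-cre and 0.17 higher in Foxp3-cre, within the spread of the arrays.

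Genes passed where limma's moderated test gave a p below 0.05 after Benjamini-Hochberg adjustment over the 7436 genes. In CD4-cre against wild type 0.659% of all tested genes passed (0.229% rose and 0.430% fell), in Foxp3-cre against wild type 3.36% (1.69% rose and 1.67% fell), and between the knockouts 0.0134%, so a count of 0 among 8 genes is close to the background. At an unadjusted p below 0.05 the members numbered 0 in CD4-cre, 2 in Foxp3-cre (Plk2 and Bbc3) and 1 between the knockouts (Bbc3), where 14.1%, 21.3% and 11.3% of all tested genes lay. The median change of the 8 was -0.05 in CD4-cre, -0.20 in Foxp3-cre and -0.03 between the knockouts, beside 0.03, 0.01 and -0.02 for all tested genes. Both knockouts are set against the same 3 wild type arrays, so their changes are not independent of each other.

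One array, wild type replicate 2, was unlike the other 8. It correlated at 0.982 to 0.987 with them, while they correlated with each other at 0.992 or more. Its 5' minus 3' signal, a sign of RNA quality, was -1.10 for Gapdh and -1.53 for beta-actin, against -0.36 to -0.05 and -0.68 to -0.45 elsewhere. Without that array 0 members passed in each of the 3 comparisons. With a fit that weights arrays by their residual spread, which gave it a weight of 0.082, Btg2, Plk2 and Gadd45a were lower and passed in CD4-cre, Mdm2, Btg2 and Plk2 were lower and passed in Foxp3-cre, and Bbc3 passed between the knockouts, among 1298, 1539 and 812 genes of 7436. Sirt1 itself read 7.91, 6.77 and 7.90 on the wild type arrays, 7.69, 7.59 and 7.59 on those of CD4-cre, and 7.66, 7.54 and 7.47 on those of Foxp3-cre, and it is not given which part of the gene is removed, so the genotypes are those of the labels. Foxp3 read 9.16 to 9.69 in wild type and CD4-cre and 2.67 to 3.38 in Foxp3-cre.

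**Figure D1:**
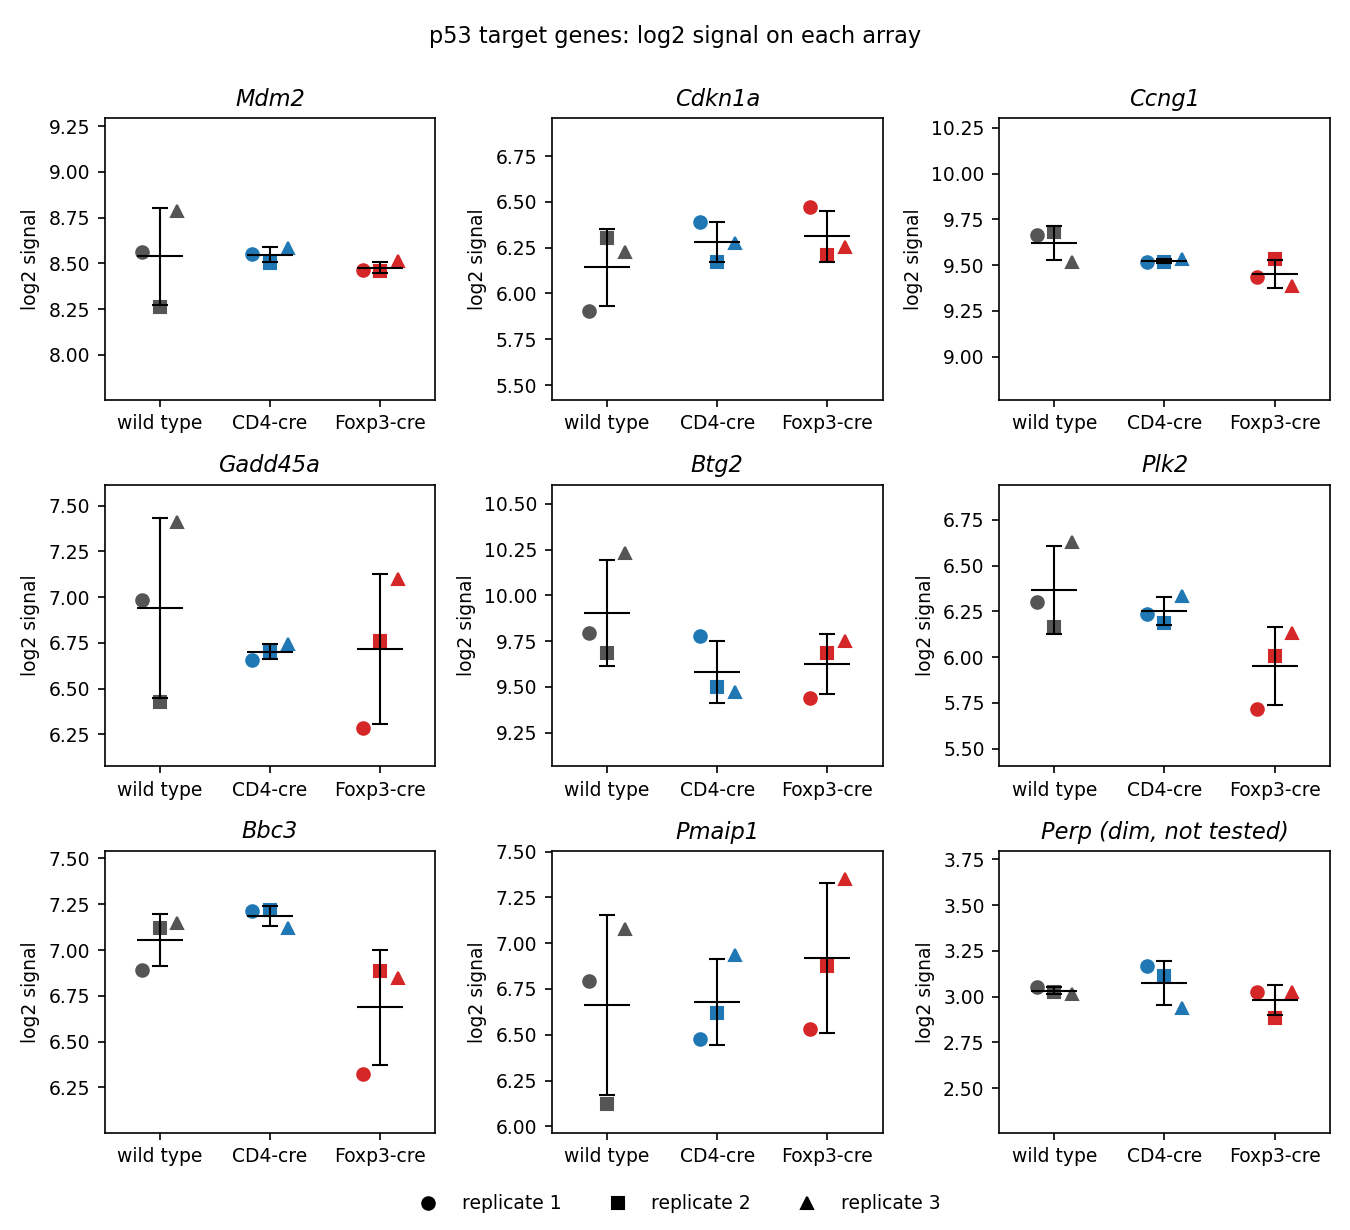
Log2 signal (vertical axis) of 9 p53 target genes on each of the 9 arrays, with 1 panel per gene and the same axis span in all panels. Symbols mark the replicate number, and horizontal lines with bars give the group mean ± SD (n = 3 arrays). The groups overlap for Mdm2, Cdkn1a, Ccng1, Gadd45a, Btg2, Pmaip1 and Perp. The Foxp3-cre arrays lie below the others for Plk2, by a small margin, and for Bbc3, where they nearly touch.

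Mdm2 is the negative regulator of p53. Its log2 signals on the 3 wild type arrays were 8.56, 8.26 and 8.79, those of CD4-cre 8.55, 8.50 and 8.59, and those of Foxp3-cre 8.46, 8.46 and 8.51. Wild type held both the lowest and the highest of the 9 values, so the knockouts lay inside its range. The lowest was replicate 2, the array unlike the others, and without it the Foxp3-cre arrays all lay below wild type, at -0.20 (limma unadjusted p = 0.0288, adjusted p = 0.139), with CD4-cre at -0.13. The changes were 0.0084 (SE 0.12) in CD4-cre and -0.06 (SE 0.12) in Foxp3-cre, with limma adjusted p = 0.980 and adjusted p = 0.786. The 95% interval of the Foxp3-cre change ran from -0.33 to 0.21. A second, dimmer Mdm2 probe set stood at -0.22 and -0.13 against wild type, with adjusted p = 0.513 and adjusted p = 0.630 in a fit of all 22626 probe sets.

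Cdkn1a encodes p21, which binds and blocks cyclin-dependent kinases and is the best known effector of p53 in cell cycle arrest. It read 5.91, 6.30 and 6.22 on the wild type arrays, 6.39, 6.17 and 6.28 on those of CD4-cre, and 6.47, 6.21 and 6.26 on those of Foxp3-cre. Wild type replicate 1 was the lowest array and Foxp3-cre replicate 1 the highest, and the other 7 values overlapped. The change was 0.14 (SE 0.12, limma adjusted p = 0.626) for CD4-cre against 0.17 (SE 0.12, adjusted p = 0.435) for Foxp3-cre. The intervals, -0.14 to 0.41 and -0.10 to 0.44, lie on both sides of 0. Without wild type replicate 1, the lowest array, the changes were 0.017 and 0.049. The second Cdkn1a probe set gave 0.14 and 0.16, near the values of the first, and passed in neither knockout (adjusted p = 0.625 and adjusted p = 0.485 over all probe sets). Between the knockouts Cdkn1a differed by 0.03 (SE 0.12, adjusted p = 0.969).

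Ccng1 encodes cyclin G1, which recruits a phosphatase to Mdm2, and Gadd45a encodes a protein that binds p21 and PCNA and takes part in growth arrest and DNA repair. The brightest Ccng1 probe set was the least variable member, with 9.66, 9.68 and 9.52 on the wild type arrays, 9.52, 9.52 and 9.53 on those of CD4-cre, and 9.43, 9.54 and 9.39 on those of Foxp3-cre. Its changes were -0.10 (SE 0.08, limma adjusted p = 0.583) and -0.17 (SE 0.08, adjusted p = 0.248). Gadd45a had the opposite character: 6.99, 6.43 and 7.41 on the wild type arrays, 6.66, 6.71 and 6.74 on those of CD4-cre, and 6.28, 6.76 and 7.10 on those of Foxp3-cre. Its wild type arrays spread beyond the whole CD4-cre group on both sides. The standard deviation of Gadd45a within groups, 0.37, exceeded that of 96.2% of the tested genes, against 9.62% for Ccng1. The change of Gadd45a was -0.24 (SE 0.25, adjusted p = 0.683) for CD4-cre against -0.23 (SE 0.25, adjusted p = 0.608) for Foxp3-cre, and the intervals, -0.80 to 0.32 and -0.79 to 0.33, are wide. These values depended on the wild type replicates: without replicate 3 they were -0.0056 and 0.0065, and without replicate 2 they were -0.50 and -0.48.

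Btg2, an antiproliferative partner of the deadenylation machinery that T cells also switch on upon stimulation, had the most negative change of the members in CD4-cre. It read 9.79, 9.68 and 10.23 on the wild type arrays, 9.78, 9.50 and 9.47 on those of CD4-cre, and 9.44, 9.68 and 9.75 on those of Foxp3-cre. Wild type replicate 3 lay above the other 8 arrays, and the remaining values overlapped between groups. The change was -0.32 (SE 0.15, limma adjusted p = 0.385) for CD4-cre against -0.28 (SE 0.15, adjusted p = 0.327) for Foxp3-cre. Leaving out wild type replicate 3 gave -0.16 and -0.11. The second Btg2 probe set read 8.81, 8.38 and 8.96 in wild type and 8.13, 8.13 and 8.31 in Foxp3-cre, with the groups apart, a change of -0.53 (SE 0.14) that had adjusted p = 0.125 over all probe sets.

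Plk2 encodes a polo-like kinase of the stress response and of centriole duplication. It read 6.30, 6.16 and 6.63 on the wild type arrays, 6.24, 6.19 and 6.34 on those of CD4-cre, and 5.72, 6.01 and 6.13 on those of Foxp3-cre. The 3 Foxp3-cre arrays all lay below the other 6, though the highest of them was close to wild type replicate 2. The Foxp3-cre change was -0.41 (SE 0.14), a 1.33-fold lower signal, with an unadjusted p = 0.0149 and adjusted p = 0.132 in limma. Its size exceeded that of 90.6% of the tested genes, and with 1 array left out the change ran from -0.51 to -0.28. Against CD4-cre the difference was -0.30 (SE 0.14, adjusted p = 0.457), and CD4-cre itself stood at -0.11 (SE 0.14, adjusted p = 0.739).

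Bbc3 and Pmaip1 encode PUMA and NOXA, BH3-only proteins that trigger apoptosis by engaging the survival proteins of the BCL2 family. Bbc3 read 6.890, 7.12 and 7.15 on the wild type arrays, 7.22, 7.22 and 7.12 on those of CD4-cre, and 6.32, 6.885 and 6.85 on those of Foxp3-cre. Foxp3-cre was the low group, although its replicate 2 and wild type replicate 1 nearly touched. The Foxp3-cre change was -0.37 (SE 0.15, limma adjusted p = 0.194), and -0.19 without Foxp3-cre replicate 1, the lowest array. Between the knockouts Bbc3 differed by -0.50 (SE 0.15), with an unadjusted p = 0.0072 and adjusted p = 0.261, as the CD4-cre change was 0.13 (SE 0.15, adjusted p = 0.699). Without Foxp3-cre replicate 1 that difference was -0.32.

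Pmaip1 went the other way in Foxp3-cre, without passing. It read 6.80, 6.12 and 7.08 on the wild type arrays, 6.48, 6.62 and 6.94 on those of CD4-cre, and 6.53, 6.88 and 7.35 on those of Foxp3-cre. Wild type replicate 2 was the lowest array and Foxp3-cre replicate 3 the highest, and the groups overlapped throughout. The changes were 0.01 (SE 0.27, limma adjusted p = 0.984) and 0.26 (SE 0.27, adjusted p = 0.586). Without wild type replicate 2 they were -0.26 and -0.02. Perp, a membrane protein of cell death and of epithelial junctions, read 2.88 to 3.17 on the 9 arrays, at or above 15.1 to 19.3% of the probe sets of an array, in the range of undetected genes, and was not tested.

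**Figure D2:**
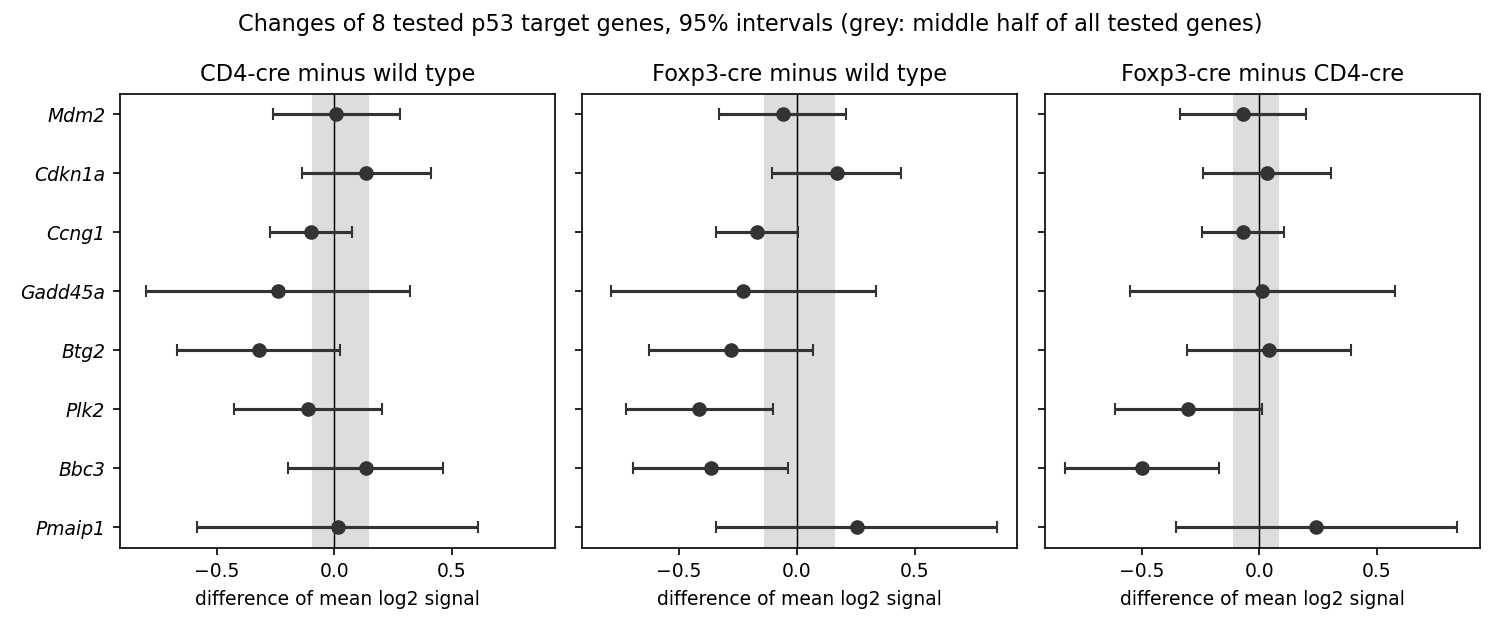
Difference of mean log2 signal (horizontal axis) of the 8 tested p53 target genes in the 3 comparisons, with 95% intervals from limma's fit, not adjusted for the number of genes. The grey band spans the lower to the upper quartile of all 7436 tested genes. The intervals reach 0 except for Plk2 and Bbc3 in Foxp3-cre against wild type and for Bbc3 between the knockouts, and none of these passed the adjusted threshold.

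Genes read by several probe sets showed how far the reading of a member depends on the probes. Ccng1 has 3, which disagreed in CD4-cre: the brightest stood at -0.10, another at -0.24 and the last at 0.41. That last probe set read 7.14, 6.74 and 6.90 in wild type and 7.19, 7.33 and 7.48 in CD4-cre, so all CD4-cre arrays were higher, with adjusted p = 0.228 over all probe sets. For Cdkn1a the pair of probe sets agreed in sign and size in both knockouts. For Btg2 the sets shared their sign against wild type, at -0.32 and -0.30 in CD4-cre and at -0.28 and -0.53 in Foxp3-cre. In the fit of all 22626 probe sets 0 of the 14 member probe sets passed in any comparison, where 61, 252 and 1 passed in all, and the smallest adjusted p values of a member were 0.228 in CD4-cre, 0.125 in Foxp3-cre and 0.363 between the knockouts.

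**Figure D3:**
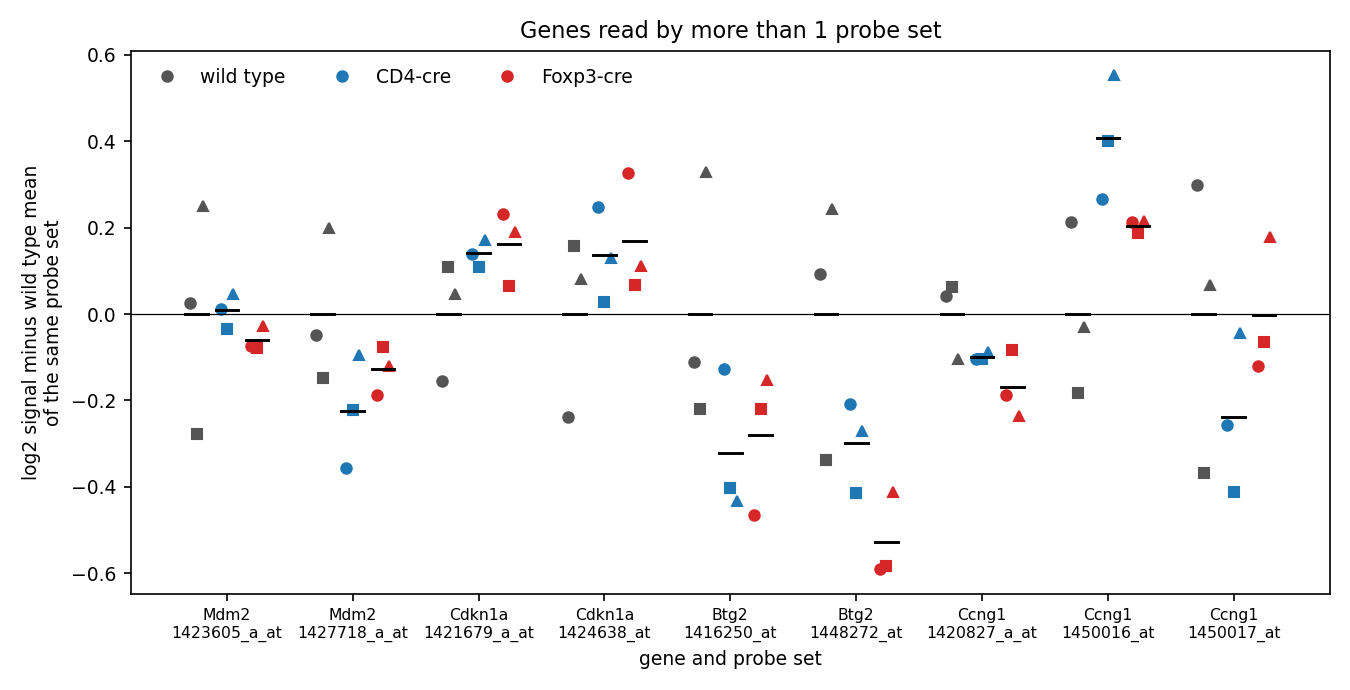
Log2 signal minus the wild type mean of the same probe set (vertical axis) for the 9 probe sets of the 4 members that have more than 1. Points are arrays, with circles, squares and triangles for replicates 1, 2 and 3, and black lines are group means. The Cdkn1a sets run alike, while the Ccng1 sets lie on both sides of 0.

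Members whose arrays did not overlap between groups were counted beside all tested genes. In CD4-cre against wild type there were 0 such members of 8, where 21.0% of all tested genes were apart (11.9% higher, 9.16% lower). In Foxp3-cre against wild type Plk2 and Bbc3 were apart, both lower, which is 2 of 8 beside 23.4% of all tested genes, 11.1% higher and 12.2% lower. Between the knockouts the same 2 genes were apart, beside 29.7% of all tested genes, 10.9% higher and 18.8% lower.

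The extremes of the members often fell on the same arrays. Wild type replicate 3 was the highest of its group for 6 of the 8 members (29.7% of all tested genes), wild type replicate 2 the lowest for 5 (49.7%), and Foxp3-cre replicate 1 the lowest of its group for 5 (31.8%). Mdm2, Btg2, Plk2 and Gadd45a had their highest signal of all 9 arrays on wild type replicate 3, as did 13.8% of all tested genes. Btg2, Plk2, Bbc3 and Gadd45a had their lowest on Foxp3-cre replicate 1, as did 11.4%. The range over the 9 arrays ran from 0.30 for Ccng1 to 1.23 for Pmaip1, against a median of 0.50 for all tested genes.

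Among other p53 targets, 20 of 28 tested genes, from a list of 40, lay lower in Foxp3-cre than in wild type. The mean signal of the list was 7.87 to 7.94 on the wild type arrays and 7.85 to 7.88 on those of CD4-cre. On those of Foxp3-cre it was 7.79 to 7.82, so every Foxp3-cre array lay below the other 6. The gap was narrow, and the mean includes Sfn, whose fall in Foxp3-cre, -1.34, was the largest of the 28. The mean without Sfn is not given, so the gap does not by itself show a lowering across the list. At an unadjusted p below 0.05 in limma there were 11 of 28 in Foxp3-cre, 4 in CD4-cre and 7 between the knockouts, beside 21.3%, 14.1% and 11.3% of all tested genes. After adjustment 1 fell in each knockout against wild type, Sfn, the 14-3-3 protein sigma that retains mitotic kinases in the cytoplasm. Sfn read 5.87, 6.72 and 6.33 on the wild type arrays, 4.98, 5.04 and 5.03 on those of CD4-cre, and 5.05, 4.93 and 4.93 on those of Foxp3-cre, with the groups apart. The falls were -1.29 (SE 0.17, limma adjusted p = 0.0148) and -1.34 (SE 0.17, adjusted p = 0.00776). The knockout signals lie near the threshold for testing, 4.98, but above the dim signals of Perp, 2.88 to 3.17. Sesn1, a stress sensor that restrains mTORC1, read 9.88, 10.07 and 10.17 in wild type and 9.25, 9.65 and 9.60 in Foxp3-cre. It stood at -0.55 (SE 0.13, limma adjusted p = 0.051) in Foxp3-cre against wild type and at -0.58 (SE 0.13, adjusted p = 0.178) between the knockouts, where Gadd45b, a relative of Gadd45a, stood at -0.51 (SE 0.16, adjusted p = 0.269). The median change of the 28 was 0.02 in CD4-cre, -0.09 in Foxp3-cre and -0.06 between the knockouts. Without wild type replicate 2 the falls numbered 2 and 3, and 1 gene of the list rose between the knockouts.

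Of 34 regulators of p53 listed, 22 were tested. Hdac1, a deacetylase that also acts on p53, rose in both knockouts: it read 8.96, 8.82 and 8.94 on the wild type arrays, 9.41, 9.35 and 9.29 on those of CD4-cre, and 9.37, 9.31 and 9.23 on those of Foxp3-cre. The rise was 0.44 (SE 0.08, limma adjusted p = 0.0462) for CD4-cre against 0.39 (SE 0.08, adjusted p = 0.0306) for Foxp3-cre. Chek1, a checkpoint kinase that phosphorylates p53 and is made mostly in dividing cells, rose in Foxp3-cre by 0.94 (SE 0.17, adjusted p = 0.024) and stood at 0.52 in CD4-cre (adjusted p = 0.229). Its Foxp3-cre signals were 6.73, 6.07 and 5.96, against 5.25 to 5.36 in wild type. Beside these counts, 1 of 22 in CD4-cre and 2 of 22 in Foxp3-cre, 0.229% and 1.69% of all tested genes rose. Without Foxp3-cre replicate 1 the Foxp3-cre count was 1. Between the knockouts 0 of the 22 passed in limma, 2 of them at an unadjusted p below 0.05, beside 11.3% of all tested genes. Chek1 stood at 0.42 there and Ing1, a chromatin reader, at -0.29.

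Cell cycle genes that p53 is known to lower through p21 and the DREAM repressor complex rose in part in Foxp3-cre. These are genes of dividing cells in general, and whether p53, p21 or DREAM had a part in their values was not tested. Of 24 tested, 10 rose in Foxp3-cre, among them the mitotic motor Kif11 by 1.27 (SE 0.21, limma adjusted p = 0.0196), the ubiquitin-conjugating enzyme Ube2c by 1.25, the spindle protein Nusap1 by 1.23 and the cytokinesis motor Kif23 by 0.77. Of all tested genes 1.69% rose in Foxp3-cre. In CD4-cre and between the knockouts 0 of the 24 passed. All 24 lay higher in each of the 3 comparisons. At an unadjusted p below 0.05 in limma there were 22 of 24 in Foxp3-cre, 4 in CD4-cre and 17 between the knockouts. Of all tested genes 21.3%, 14.1% and 11.3% were. The list's median was 0.92 in Foxp3-cre, 0.30 in CD4-cre and 0.58 between the knockouts. The mean signal of the list was 6.50 to 6.99 on the wild type arrays, 7.03 to 7.13 on those of CD4-cre and 8.12, 7.27 and 7.53 on those of Foxp3-cre. The Foxp3-cre count was 8 without wild type replicate 2 and 8 without Foxp3-cre replicate 1, where the median was 0.68. Between the knockouts 1 passed without wild type replicate 2. Ect2 and Ccnb2 had the largest values in CD4-cre, 0.67 and 0.61, and Kif11 and Bub1 between the knockouts, 0.81 and 0.77.

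The cyclins, kinases and partners bound by p21 or Gadd45a did not pass. Of 8 tested, 0 changed by limma in any comparison. In CD4-cre, in Foxp3-cre and between the knockouts 1, 3 and 0 had an unadjusted p below 0.05. Of all tested genes 14.1%, 21.3% and 11.3% had one. Cdk4, a kinase of the first gap phase, stood at 0.41 (adjusted p = 0.193) in CD4-cre and 0.45 (adjusted p = 0.0815) in Foxp3-cre. Ccnd1, a cyclin that pairs with it, stood at -0.62 in CD4-cre, and Pcna, the replication clamp, at 0.59 in Foxp3-cre and 0.23 between the knockouts, where Ccnd1 stood at 0.19. The median change of the 8 was 0.06, 0.14 and 0.07.

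Immediate early genes, a quick answer of cells to stimulation and to handling, were read beside Btg2 and Plk2 because both are also induced in that way. Of 20 tested, 3 fell in Foxp3-cre, as did 1.67% of all tested genes. The 3 were the transcription factors Klf6, by 0.46 (SE 0.08, limma adjusted p = 0.0211), and Klf4, by 0.57 (SE 0.11), and the phosphatase subunit Ppp1r15a, by 0.71 (SE 0.15). The mean signal of the list was 9.39 to 9.76 in wild type, 9.57 to 9.66 in CD4-cre and 9.23 to 9.38 in Foxp3-cre. The Foxp3-cre arrays lay below the others, though replicate 3, at 9.376, nearly touched wild type replicate 2, at 9.388. The median change was -0.27 in Foxp3-cre, 0.01 in CD4-cre and -0.32 between the knockouts. The Foxp3-cre count was 6 without wild type replicate 2 and 1 without Foxp3-cre replicate 1. In CD4-cre 0 of 20 passed, with 3 at an unadjusted p below 0.05 in limma, beside 14.1% of all tested genes. Dusp2 and Myc stood highest there, at 0.44 and 0.40. Between the knockouts 0 passed, with 10 at an unadjusted p below 0.05 in limma, beside 11.3% of all tested genes. Fosb and Nr4a1 stood lowest there, at -0.75 and -0.64, and 4 fell without wild type replicate 2. Whether these genes share their lower signal with Plk2 and Btg2 was not tested.

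**Figure D4:**
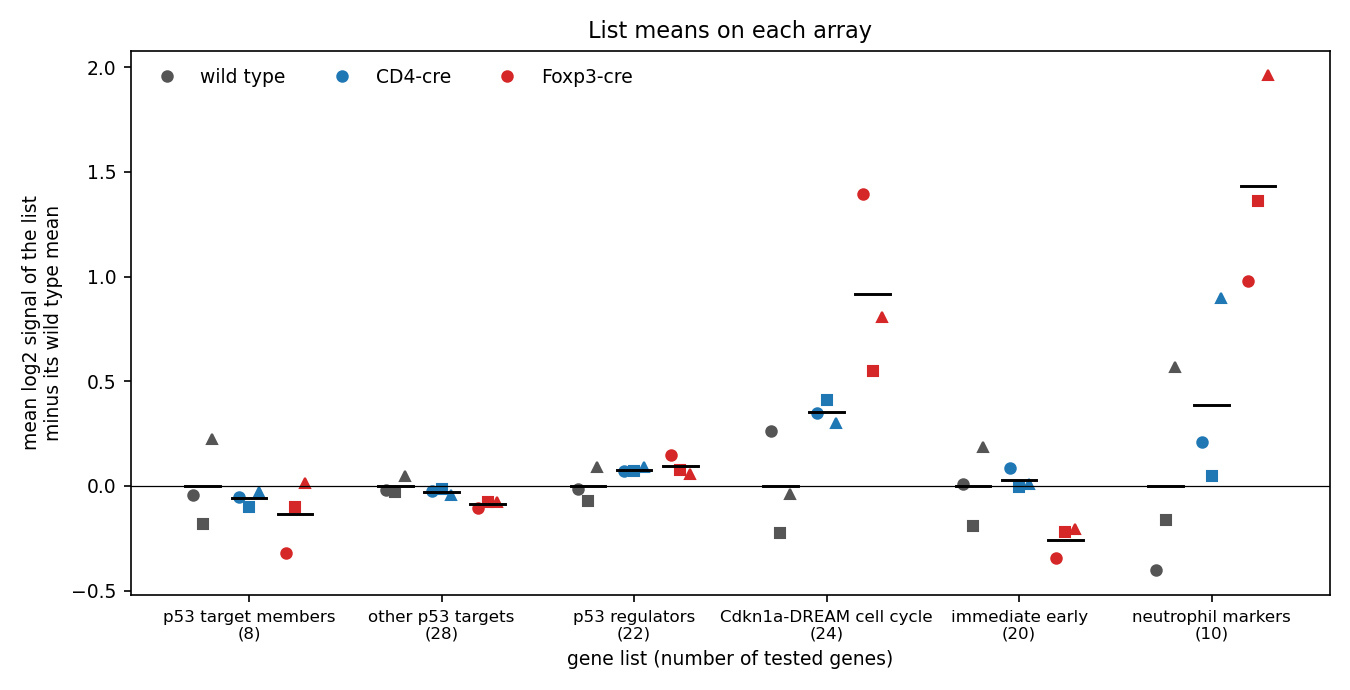
Mean log2 signal of each gene list on each array minus the list's wild type mean (vertical axis). Circles, squares and triangles are replicates 1, 2 and 3, and black lines are group means. The p53 target members overlap between the groups. In Foxp3-cre the other p53 targets and the immediate early genes lie below all wild type arrays, both by a small margin. The mean of the other p53 targets includes Sfn, the gene with the largest fall of that list. The cell cycle list and the neutrophil markers lie above all wild type arrays in Foxp3-cre.

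Some markers of other cells were higher in Foxp3-cre, where 1.69% of all tested genes rose and 21.3% had an unadjusted p below 0.05 in limma. Neutrophil markers rose in 6 cases of 10, with Elane up by 1.14, Ngp by 2.43, Mpo by 1.81 and Lcn2 by 2.40, while Csf3r stood at -0.33 and Cxcr2 at 0.05. The list mean was 7.78 to 8.75 in wild type, 8.23 to 9.08 in CD4-cre and 9.16 to 10.14 in Foxp3-cre. Of 5 tested macrophage markers C1qb rose, by 2.47. Its mean signal was 6.60 on the Foxp3-cre arrays, but 4.13 for wild type and 4.94 for CD4-cre, both below the filter threshold of 4.98. C1qb thus met the filter through the group where it rose, and its rise starts from signals that the filter counts as low. The macrophage list means were 6.16 to 6.65, 6.07 to 7.38 and 6.97 to 8.57, while Adgre1, Cd14, C1qc and Fcgr1 were too dim to test. Of 4 tested B cell markers 0 passed in limma and 1 had an unadjusted p below 0.05 (Ms4a1 stood at 1.06 and Blk at 0.65). Their list means were 7.05 to 7.88, 7.87 to 7.95 and 7.12 to 8.85, and Ebf1, Pax5 and Cr2 fell below the filter. Of 4 plasma cell markers 0 passed, with Jchain at -0.60 and Xbp1 at 0.26 in Foxp3-cre and list means between 8.46 and 8.86. The T cell markers Cd3e, Cd3d, Cd3g, Cd2, Cd5 and Cd28 had list means of 10.89 to 11.10, 11.03 to 11.09 and 10.98 to 11.03, with 0 of 6 passing and 0 at an unadjusted p below 0.05. Of 6 regulatory T cell markers Foxp3 alone fell, in Foxp3-cre. Cd28 stood at 0.30 and Cd3e at -0.11 in Foxp3-cre. The part of these cells in the values of Plk2, Bbc3 and the other members was not tested, and in bulk RNA fewer cells of a type and less RNA per cell cannot be told apart.

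In the other comparisons Foxp3, between the knockouts, was the 1 marker that passed. Of all tested genes 14.1% in CD4-cre against wild type and 11.3% between the knockouts had an unadjusted p below 0.05 in limma. In CD4-cre against wild type the neutrophil markers Csf3r and Camp stood at -1.53 (SE 0.40, limma adjusted p = 0.138) and 1.20 (SE 0.50, adjusted p = 0.330), opposite in sign, with 5 of 10 at an unadjusted p below 0.05. The macrophage markers C1qb and Csf1r stood at 0.82 and -0.35 there, the B cell markers Ms4a1 and Blk at 0.77 and 0.43, and the plasma cell markers Jchain and Prdm1 at -0.49 and 0.18. Among T cell and regulatory T cell markers Cd28 and Cd3e stood at 0.32 and -0.10, and Ikzf2 and Cd4 at 0.57 and -0.31. Between the knockouts Lcn2 and Ltf stood at 1.59 and 1.53, with 8 of 10 neutrophil markers at an unadjusted p below 0.05, and C1qb and C1qa at 1.65 and 1.39, with 4 of 5 macrophage markers. Cd79b and Cd79a stood at 0.32 and 0.32 between the knockouts, Xbp1 and Prdm1 at 0.21 and -0.20, and Cd2 and Cd3d at -0.14 and -0.10.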

How the data were processed

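RNA of 9 samples in 3 groups was read on 1 array each; the labels give groups and replicate numbers. The deposited values are log2 signals of probe sets, which the authors made with RMA, per the submitters' processing notes. RMA corrects background, normalizes between arrays and summarises probes, so it removes changes common to all genes and compresses those of dim genes. The number of arrays limits the precision: the median SE of a change was 0.11.

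Of 22690 probe sets, 64 controls were left out, and 20380 carry 1 gene symbol in the platform annotation, 691 several and 1555 none. Symbols were matched through gene IDs to RefSeq's GRCm38.p6 table (20351 matched). Each of 12393 genes was represented by its brightest probe set, and 7436 of these passed a filter on mean signal at the 40th percentile (4.98).

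The test was limma's (version 3.58.1, R 4.3.3, lmFit and eBayes), in 1 fit over all 9 arrays, two-sided, with Benjamini-Hochberg adjustment over all tested genes and a threshold of 0.05. The fit was tested on simulated data. With 3 arrays a group, exact permutation cannot give less than p = 0.1 and was left out. Members and lists (other p53 targets, p53 regulators, cell cycle genes of the p21 and DREAM route, partners of p21 and Gadd45a, immediate early genes, and markers of T, regulatory T, B and plasma cells, neutrophils and macrophages) were chosen with earlier results of these data known. From each list the text names up to 4 genes that passed, by smallest p, or, where none passed, the 2 with the largest change. Cxcr2, and Sesn1 against wild type, were added after their values were seen, as were Csf3r in Foxp3-cre and Chek1 in CD4-cre. Promoter windows are RefSeq's, and 11 windows of 8 listed genes were scanned.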

Additional observations from a re-analysis of the deposited data

Results flagged for a closer look

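Foxp3 differed between the knockouts by -6.70 on the log2 scale (SE 0.18, limma adjusted p = 1.48e-07), with signals of 9.62 to 9.69 in CD4-cre and 2.67 to 3.38 in Foxp3-cre. It was singled out because the test of the difference between the knockouts passed, the 1 gene of 7436 for which it did. The Foxp3-cre signals lie near the array's floor, which limits the size of the difference. Of the 8 tested p53 targets 0 passed that test by limma, 1 of them (Bbc3) at an unadjusted p below 0.05.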

How the results depend on the processing

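The count of 0 changed p53 targets held in each of the 3 comparisons under 18 of 19 alternatives, including each array left out in turn, where the smallest adjusted p of a member was 0.161 in CD4-cre, 0.0575 in Foxp3-cre (Plk2, without wild type replicate 2) and 0.125 between the knockouts. The exception was array weights, which gave wild type replicate 2 a weight of 0.082: 3 members passed in CD4-cre (Btg2, Plk2 and Gadd45a, all lower), 3 in Foxp3-cre (Mdm2, Btg2 and Plk2, all lower) and 1 between the knockouts (Bbc3), while 1298, 1539 and 812 genes passed in all. Reported counts of all changed genes, 49, 250 and 1, ranged over 4 to 191, 71 to 567 and 1 to 72 with 1 array left out. With only the groups compared they were 22, 16 and 55. The first was 29 with a 60th percentile filter, and the third was 2 with arrays centred on their median, 5 after quantile normalization and 96 with the replicate block. Same-numbered arrays correlated in their deviations from group means at -0.03 to 0.49, over 0.1 in 7 of 9 pairs. Arrays of different groups and different numbers correlated at -0.39 to 0.32. The main fit did not take the numbers as pairs, and whether same-numbered samples were handled together was not tested. With the replicate block 0 members passed in each comparison, while 67, 354 and 96 genes passed in all.

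Small changes turned sign. With the mean of all probe sets Mdm2 stood at -0.11 in CD4-cre and 0.014 between the knockouts, Ccng1 at 0.023 for CD4-cre and 0.011 for Foxp3-cre, and Btg2 at -0.094 between the knockouts. With arrays centred, Mdm2 and Pmaip1 stood at -0.017 and -0.012 in CD4-cre and Gadd45a at -0.00082 between the knockouts, where quantile normalization gave -0.0030. Array weights gave -0.20 for Mdm2 and -0.38 for Pmaip1 in CD4-cre, and -0.026 for Cdkn1a between the knockouts. With 1 array left out the changes in CD4-cre ran from -0.13 to 0.13 for Mdm2, -0.21 to 0.021 for Plk2 and -0.26 to 0.22 for Pmaip1. In Foxp3-cre they ran from -0.20 to 0.065 for Mdm2, -0.48 to 0.0065 for Gadd45a and -0.017 to 0.46 for Pmaip1. Between the knockouts they ran from -0.047 to 0.089 for Cdkn1a, -0.021 to 0.14 for Btg2 and -0.18 to 0.23 for Gadd45a. The causes were not tested. The counts for other gene lists without wild type replicate 2 or Foxp3-cre replicate 1 were chosen after seeing the data.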

Other observations

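The genes whose log2 signal over the 9 arrays ran most like that of Cdkn1a were Clasp1 (Pearson's r = 0.949, Spearman's rho = 0.81), a microtubule-binding protein, Mlec (r = 0.945, rho = 0.90), a lectin of the endoplasmic reticulum, and Pih1d1 (r = 0.923, rho = 0.89), a chaperone adaptor. They are the 3 highest of 7436 tested genes, chosen for that rank, so no p is given, and the arrays share their groups. Without wild type replicate 2 the correlations were 0.956, 0.977 and 0.951. Over the 9 arrays their signals ranged over 0.34, 0.34 and 0.15, against 0.57 for Cdkn1a.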
